A study of Drosophila melanogaster with 6 samples.

Results

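A set of 10 signalling genes of midgut regeneration was followed across 6 Drosophila melanogaster RNA-seq libraries. They are upd2, upd3, dome, Stat92E and Socs36E of the JAK-STAT pathway, vn, Krn, spi and aos of the EGF receptor pathway, and puc of the JNK pathway. Each was found in the deposited count tables by its FlyBase gene identifier, whose symbol was read from the Ensembl annotation, and all 10 of 10 were present among 17411 genes. In 3 libraries the genotype was Mex-Gal4>9G8RNAi and in the other 3 it was Mex-Gal4>GFPdsRNA, with replicates A, B and D in each group. Mex-Gal4, a driver active in the absorptive enterocytes of the midgut and not in all cells of the intestine, is thus shared by both groups, and 9G8 is the SR-type splicing factor encoded by x16. The labels give intestines as the tissue of the 9G8-RNAi libraries and fat bodies as that of the controls, the series design names a yolk driver instead, and age, sex and the number of flies per library are not stated there. No label says whether the replicates are separate pools of flies. The p-values here set group differences against the spread between these libraries, taken as independent, which the labels do not show.

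In the fly midgut, stressed or dying enterocytes release Upd cytokines, which bind the receptor Domeless on other cells and activate the transcription factor Stat92E through the kinase Hopscotch. EGF receptor ligands reach the stem cells from several sources, with Vein known from visceral muscle, Keren from enterocytes and Spitz from progenitor cells. JNK signalling acts in damaged enterocytes and induces puckered, a phosphatase that in turn inhibits JNK. Together these signals are known to drive division of intestinal stem cells and replacement of enterocytes.

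None of the 9 genes that could be tested passed the test between 9G8-RNAi and control libraries. The 5 JAK-STAT genes and the muscle-linked ligand gene vn had lower means in 9G8-RNAi, while spi, Krn, aos and puc had group means within 1.10-fold of each other. In 8 of the 10 genes control replicate A held the highest level, as in 26.6% of all tested genes. The fold changes of upd3, Socs36E and vn rested largely on control A, with log2 fold changes of -0.26, 0.09 and 0.13 without it. They depended on control D in the other direction, and were -1.425, -0.61 and -1.78 without that library. The cytokine gene upd2, the lowest of the 10, was the 1 gene of the 10 whose groups did not overlap, on 9 counts in 9G8-RNAi and 41 in control libraries in all; groups did not overlap for 8.61% of tested genes. Exact two-sided permutation tests over the 6 libraries gave p values from 0.1 to 1 for the 10 genes, where 0.1 is the lowest that 3 against 3 can give. Levels below are CPM, read counts relative to library size, with library sizes scaled by the TMM method unless CPM of total counts is named, and a negative log2 fold change means a lower level in 9G8-RNAi.

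Depth ranged from 26216430 to 66562756 counts per library, so that 3 counts, the floor used for a gene at 0, stand for 0.0451 to 0.114 CPM of total counts. Such floors and the counting intervals given below cover counting error only. TMM factors ran from 0.635 in control D to 1.68 in control A, and genes at 0 numbered 2079 to 3025 in 9G8-RNAi D and controls A and B but 5163 to 6091 in 9G8-RNAi A and B and control D. The targeted gene x16 measured 8.16 ± 2.92 CPM with 9G8-RNAi and 11.8 ± 7.13 CPM in controls (SD, n = 3), with overlapping groups, so the labels could not be checked by the level of its transcript. Of 9285 genes tested with edgeR, 11 (0.118%) had an adjusted p under 0.05, and 1.14% of genes passed with DESeq2, with 0 of the 9 passing in either.

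The upd genes lie near each other on the X chromosome and encode secreted cytokines related to the interleukin-6 family of vertebrates. In BDGP6 coordinates as deposited, upd2 (FBgn0030904) runs from 18240654 to 18243284 on the minus strand and upd3 (FBgn0053542) from 18277233 to 18284596 on the plus strand, with 33948 bases between them. Each has 4 separate exon blocks and no exon shared with another gene. The upd3 gene measured 0.358, 0.521 and 0.773 CPM in 9G8-RNAi A, B and D, against 2.20, 0.988 and 0.296 CPM in control A, B and D. Controls thus held both the highest and the lowest of the 6 values, and the groups overlapped. These levels come from 9, 19 and 60 counts, against 97, 52 and 6 counts in the controls. The log2 fold change of upd3 was -1.07 ± 0.69 (SE), a fold of 0.476 with a 95% interval from 0.159 to 1.43 and an edgeR adjusted p of 0.92. Without control A the log2 fold change was -0.26.

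For upd2 the deposited counts were 2, 2 and 5 in 9G8-RNAi A, B and D, against 28, 9 and 4 in control A, B and D. Scaled, these are 0.080, 0.055 and 0.064 CPM against 0.636, 0.171 and 0.197 CPM. Every 9G8-RNAi library lay below every control on this scale and in CPM of total counts, as did 3.47% of all genes with a count. The gene was too low for the edgeR filter on low counts and was therefore not among the 9285. Its exact two-sided permutation test on log2(CPM + 0.5) gave p = 0.1. Over total counts the pooled 9G8-RNAi level was 0.167 times that of the controls, with an exact 95% counting interval from 0.0713 to 0.348. Control A gave 28 of the 41 control counts, and without it the ratio was 0.396 (0.149 to 1.00). Counting intervals of single libraries were wide, at 1.62 to 11.7 counts in 9G8-RNAi D and 1.09 to 10.2 counts in control D. These are raw counts at unlike depths of 66562756 and 31908476 counts, so they do not compare the levels of the 2 groups. Fitted with no filter on low counts, upd2 had a log2 difference of -2.30 ± 0.92 (SE), a fold of 0.203 with a 95% interval from 0.0545 to 0.758. Its edgeR unadjusted p there was 0.0198, as 4.06% of the 16177 genes in that fit had one under 0.05, and its adjusted p was 0.98.

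**Figure D1:**
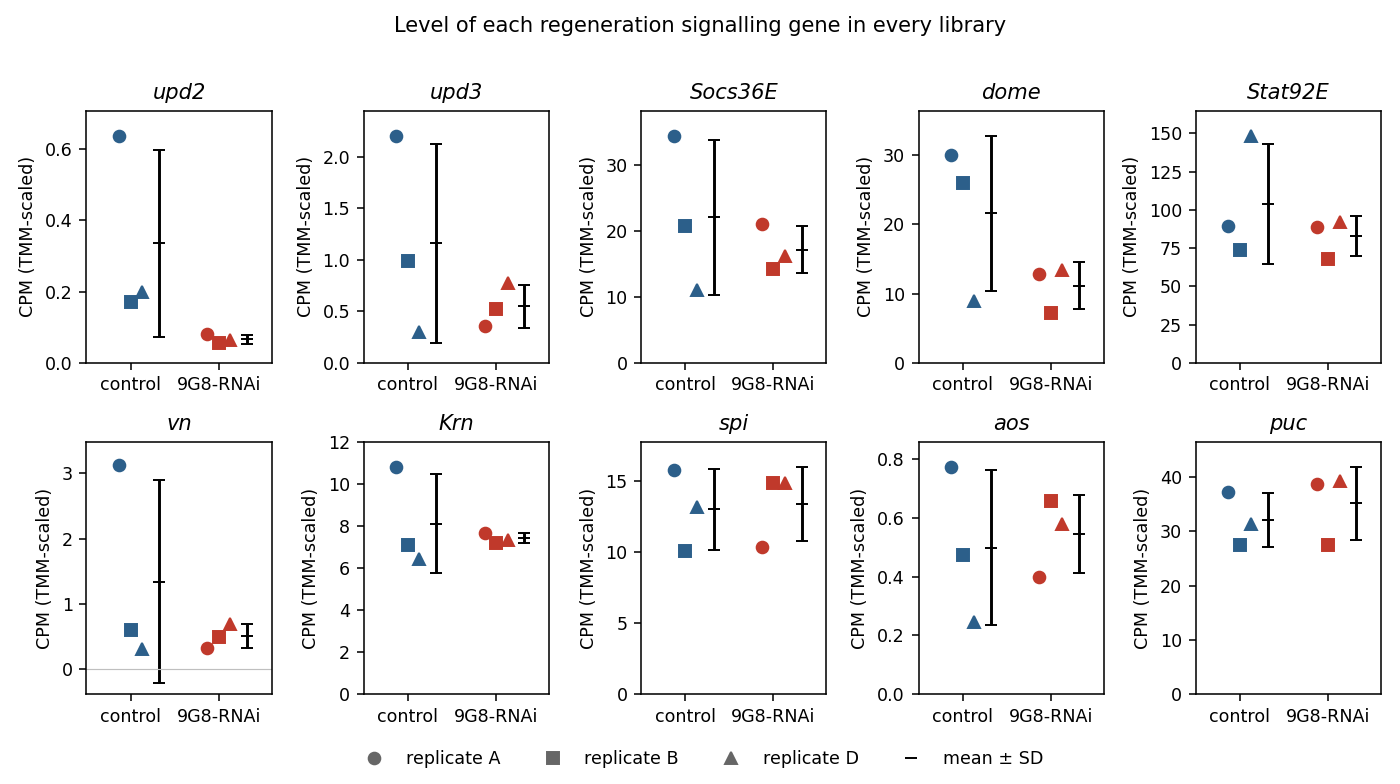
TMM-scaled CPM of each gene (vertical axes, linear, different per panel) in the 3 control and 3 9G8-RNAi libraries, with symbols for replicates A, B and D and black bars for the mean ± SD of each group. The groups are separate for upd2, at 0.080 CPM or less against 0.171 CPM or more, and overlap for the other genes; control A is the highest point for 8 of the 10.

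Domeless is the single-pass receptor of the Upd cytokines, and its gene dome (FBgn0043903, X from 19676061 to 19683518, minus strand) had the lowest unadjusted p of the 9 genes tested. It measured 12.9, 7.22 and 13.4 CPM in 9G8-RNAi A, B and D, against 30.0, 25.9 and 8.93 CPM in control A, B and D. Controls A and B stood above all 9G8-RNAi libraries, while control D lay between 9G8-RNAi B and A, so the groups overlapped. The group means were 11.2 ± 3.42 and 21.6 ± 11.2 CPM (SD, n = 3). The fold was 0.515 with a 95% interval from 0.242 to 1.10, and the log2 fold change was -0.96 ± 0.48 (SE; edgeR unadjusted p 0.078, adjusted p 0.92). An unadjusted p under 0.05 was seen for 0 of the 9 genes, against 4.53% of all tested genes.

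Stat92E (FBgn0016917, 3R from 20535323 to 20552311, minus strand), the transcription factor of the pathway, was the most abundant of the 10 genes. Its levels were 89.0, 67.9 and 92.1 CPM in 9G8-RNAi A, B and D, against 89.3, 73.8 and 148 CPM in control A, B and D. Control D stood apart at the top, and the other 5 libraries lay within 1.36-fold of each other. The log2 fold change was -0.32 ± 0.37 (SE), a fold of 0.800 with a 95% interval from 0.446 to 1.44 (edgeR adjusted p 0.92), and without control D it was 0.10.

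Socs36E (FBgn0041184, 2L from 18138675 to 18152417, minus strand) is a target of Stat92E and encodes a feedback inhibitor of the pathway, and it is often read as a measure of pathway activity. It measured 21.1, 14.2 and 16.2 CPM in 9G8-RNAi A, B and D, against 34.4, 20.7 and 11.0 CPM in control A, B and D. All 9G8-RNAi values lay inside the range of the controls. The fold was 0.776 with a 95% interval from 0.396 to 1.52, and the log2 fold change was -0.37 ± 0.42 (SE; edgeR adjusted p 0.92). Without control A it was 0.09.

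Ratios between genes of the same library do not depend on how libraries are scaled. Per kilobase of exon, Socs36E counts were 0.352, 0.310 and 0.261 times those of Stat92E in 9G8-RNAi A, B and D, against 0.573, 0.418 and 0.110 times in control A, B and D. For dome over Stat92E the ratios were 0.155, 0.114 and 0.155 with 9G8-RNAi, against 0.359, 0.376 and 0.0644 in controls. In both ratios controls A and B were above and control D was below all 9G8-RNAi libraries, so the 9G8-RNAi libraries were closer to each other than the controls were. The ratio of Socs36E to dome varied less, between 1.11 and 2.73 over the 6 libraries.

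Among ligands of the EGF receptor, vn (FBgn0003984, 3L from 5813338 to 5845664, minus strand) encodes the neuregulin-like protein Vein, which is secreted without cleavage by rhomboid proteases. It was low in every library, at 0.318, 0.494 and 0.683 CPM in 9G8-RNAi A, B and D, against 3.13, 0.589 and 0.296 CPM in control A, B and D. Control A exceeded the next highest library 4.59-fold, and the other 2 controls lay within or below the 9G8-RNAi range. The log2 fold change was -1.42 ± 0.83 (SE), a fold of 0.375 with a 95% interval from 0.0999 to 1.41 (edgeR adjusted p 0.92). Without control A it was 0.13.

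Of the 11 listed markers of visceral and other muscle, none of them at 0 in any library, 10 were also highest in control A, both in CPM of total counts and after TMM scaling. The other one, Mlp60A, which encodes a muscle LIM protein, was lowest there, at 327.5 CPM of total counts against 351.8 to 871.6 CPM elsewhere. The 11 summed to 6512 CPM of total counts in control A and to between 536 and 1335 CPM in the other 5 libraries, and after TMM scaling to 3878 CPM against 628 to 1563 CPM. Of 7 markers of hindgut and Malpighian tubule, 6 were highest in control A in CPM of total counts and 4 after TMM scaling. Among all tested genes control A was the highest library for 65.2% in CPM of total counts and for 26.6% after TMM scaling. The sum of the 7 markers was 1320 CPM of total counts in control A and between 80.5 and 246.8 CPM elsewhere. The hindgut transcription factor gene byn measured 74.1 CPM of total counts in control A and at most 1.39 CPM in the others, while the potassium channel gene Irk3 measured 24.5 CPM there and up to 67.8 CPM in 9G8-RNAi B. Their part in the levels of vn, upd3 and the other genes was not tested. In such bulk samples fewer cells of a type and less RNA per cell cannot be told apart.

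The TGF-alpha-like ligands varied less, by 1.69-fold for Krn and 1.57-fold for spi between the highest and lowest library, against 10.6-fold for vn. Keren, encoded by Krn (FBgn0052179, 3L from 17649562 to 17654280, minus strand), is cleaved from a membrane-bound precursor. Krn measured 7.68, 7.22 and 7.35 CPM in 9G8-RNAi A, B and D, against 10.8, 7.13 and 6.42 CPM in control A, B and D. All libraries but control A lay between 6.42 and 7.68 CPM. The log2 fold change was -0.13 ± 0.29 (SE), a fold of 0.912 with a 95% interval from 0.577 to 1.44 (edgeR adjusted p 0.94). Of its 1354 exonic bases, 289 (21.3%) are shared with Ndfip on the same strand, so its counts are uncertain; Ndfip itself measured 15.0 ± 1.29 and 15.8 ± 6.02 CPM (SD, n = 3).

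Spitz, encoded by spi (FBgn0005672, 2L from 19567900 to 19577315, minus strand), is the main activating ligand of the receptor in much of fly development and is likewise cleaved from a precursor. Its levels were 10.3, 14.8 and 14.9 CPM in 9G8-RNAi A, B and D, against 15.8, 10.1 and 13.1 CPM in control A, B and D. The 9G8-RNAi values lay inside the range of the controls. The fold was 1.03 with a 95% interval from 0.640 to 1.65, and the log2 fold change was 0.04 ± 0.30 (SE; edgeR adjusted p 0.98). Per kilobase, spi counts exceeded those of vn 14.5-fold in control A, 49.4-fold in control B and between 62.8-fold and 127.8-fold in the other 4 libraries.

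Argos, the product of aos (FBgn0004569, 3L from 16470386 to 16483650, minus strand), is a secreted inhibitor that binds Spitz and is itself induced by EGF receptor signalling. It measured 0.398, 0.659 and 0.580 CPM in 9G8-RNAi A, B and D, against 0.772, 0.475 and 0.247 CPM in control A, B and D. Controls held the extremes and the 9G8-RNAi libraries lay between them. The log2 fold change was 0.11 ± 0.54 (SE), with a fold of 1.08, a 95% interval from 0.456 to 2.55 and an edgeR adjusted p of 0.97. The counts behind it were 5 to 45 per library.

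For the JNK pathway, puc (FBgn0243512, 3R from 8105332 to 8122294, plus strand) encodes the phosphatase that JNK induces and that limits it. It stood at 38.7, 27.5 and 39.3 CPM in 9G8-RNAi A, B and D, against 37.3, 27.5 and 31.4 CPM in control A, B and D. This was the narrowest spread of the 10 genes, with 1.43-fold between the highest and the lowest library. The fold was 1.10 with a 95% interval from 0.689 to 1.74, and the log2 fold change was 0.13 ± 0.29 (SE; edgeR adjusted p 0.94). A change of puc beyond 2-fold in either direction therefore lies outside its interval, as it does for Krn and spi, whereas the intervals of the other 6 tested genes include a 2-fold lower level and that of aos also a 2-fold higher one.

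**Figure D2:**
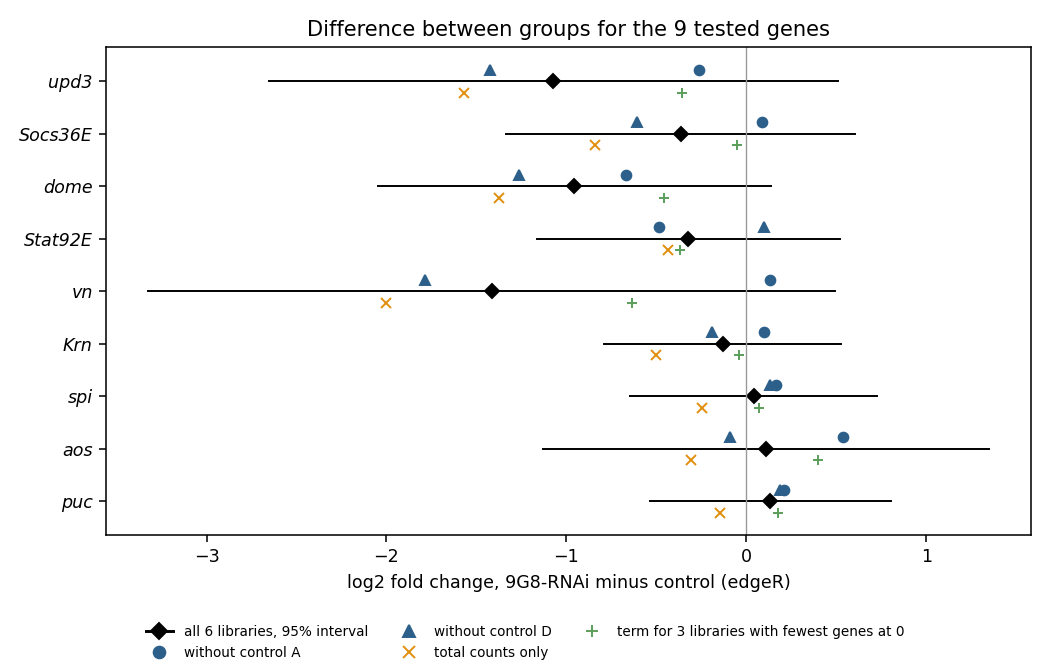
Log2 fold change of each tested gene, 9G8-RNAi minus control (horizontal axis), from edgeR with all 6 libraries (black diamonds, 95% intervals) and under 4 other settings (coloured symbols). Every interval includes 0. The values farthest below 0, of vn and upd3, are 0.13 and -0.26 without control A, where dome is at -0.67. Without control D, vn, upd3 and dome are at -1.78, -1.425 and -1.26.

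Of the 9 tested genes, 6 had a log2 fold change below 0 and 3, spi, aos and puc, above 0, with a median of -0.32, against 55.7% below 0 and a median of -0.07 among all tested genes. With total counts in place of TMM scaling, the median of all tested genes was -0.33, and spi, aos and puc also came out below 0, at -0.25, -0.31 and -0.15. On that scale control A was the highest library for all 10 genes, as for 65.2% of all tested genes, and control D the lowest for 8, as for 54.7%. Across tested genes (not independent replicates) longer exonic length went with lower log2 fold changes (Spearman's rho -0.48), and 7 of the 9 genes are longer than the median of 2043 exonic bases, up to 5239 for vn. With that trend removed from each library the log2 fold changes were -0.96 for upd3, -0.09 for Socs36E, -0.61 for dome, -0.25 for Stat92E, -0.91 for vn and -0.27 for Krn. Those of spi, aos and puc were 0.02, 0.31 and 0.27. When the 3 libraries with fewest genes at 0 had a term of their own, log2 fold changes were -0.46 for dome, -0.36 for upd3 and -0.64 for vn. For Socs36E and Krn they were -0.05 and -0.04. Those of Stat92E, spi, aos and puc lay farther from 0 than without the term, at -0.37, 0.07, 0.40 and 0.18.

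**Figure D3:**
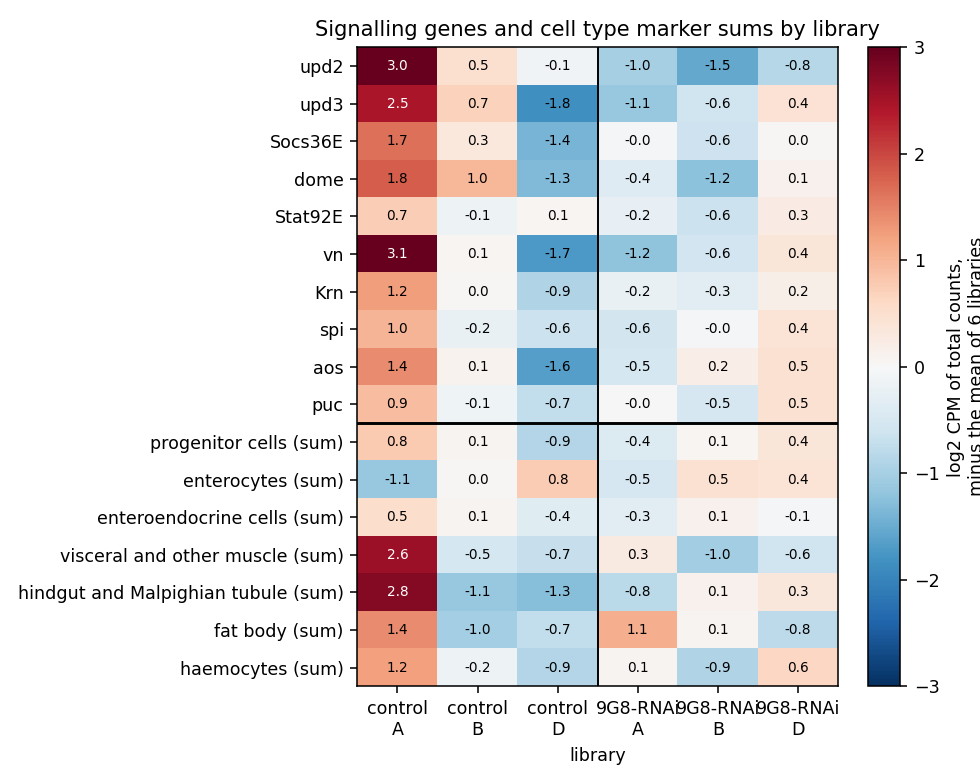
Log2 CPM of total counts minus the mean of the 6 libraries for each gene (upper rows) and for the summed markers of each cell type (lower rows), by library (columns); red is above and blue below that mean. Control A is the reddest column for all 10 genes and for every marker sum but that of enterocytes. On this scale it was the highest library for 65.2% of all tested genes. After TMM scaling the fat body sum was highest in 9G8-RNAi A (599 CPM, against 383 CPM in control A). The enteroendocrine and progenitor sums were then highest in 9G8-RNAi B (421 and 39.3 CPM, against 284 and 32.7 CPM in control A). Its sums were 6512 CPM for muscle, 1320 CPM for hindgut and tubule, 643 CPM for fat body and 476 CPM for enteroendocrine cells. For progenitor cells and haemocytes they were 55.0 and 31.5 CPM. Its enterocyte sum, most of it from 4 digestive protease genes, is the lowest of the 6.

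Markers of the cell types that send and receive these signals also varied between libraries. The 10 enterocyte markers summed to 52530 CPM of total counts in control A, to 118100 and 195600 CPM in controls B and D, and to between 81160 and 158400 CPM in 9G8-RNAi libraries. The digestive protease genes alphaTry, betaTry, Jon99Cii and Jon25Bi made up most of each sum, and other markers of the list had another order. For mex1, nub and Npc1b control A was the highest library in CPM of total counts, with mex1 at 457.8 CPM in control A and 179 CPM in control D, but none of the 10 markers was highest in control A after TMM scaling. Of 9 listed progenitor markers 7 were matched by symbol, while Dl and hdc were not and are missing from the sums. The 7 include esg, the snail-family repressor of stem cells. They summed to 24.0, 33.3 and 40.9 CPM of total counts in 9G8-RNAi A, B and D. In control A, B and D the sums were 55.0, 33.7 and 17.3 CPM. After TMM scaling the sums were 28.1, 39.3 and 35.1 CPM against 32.7, 30.4 and 27.3 CPM, and the groups overlapped on both scales. Markers of haemocytes, another source of Upd3 in flies, summed to 7.14 to 31.5 CPM of total counts over 9 genes, with He at 0 counts in every library. Of the other 8, 3 were highest in control A, among them Pxn at 21.3 CPM, against 65.2% of all tested genes. PPO2 was lowest in control A, at 0.648 CPM against up to 4.00 CPM in 9G8-RNAi D. Fat body markers summed to 119 to 643 CPM in control and 140 to 512 CPM in 9G8-RNAi libraries. In every library of both groups, the controls labelled as fat bodies included, the enterocyte sum was far above the fat body sum. The tissue of the libraries was not tested further. Members of this list differed widely in level. Lsp2, a fat body storage protein gene, Fbp1 and Fbp2 did not exceed 0.168 CPM in any library. The yolk protein gene Yp3 measured 34.7 to 220.3 CPM over the 6 libraries, and apolpp 7.33 to 82.9 CPM. In CPM of total counts 4 of the 10 were highest in control A, against 65.2% of all tested genes. Another 4, Lsp2, Yp1, Yp2 and Yp3, were highest in 9G8-RNAi A, against 5.57% of all tested genes.

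Levels of different genes were compared per kilobase of exon, as the mean over the 6 libraries. Stat92E came first with 17.9 CPM per kb, followed by puc with 10.6, spi with 7.25, Krn with 5.74, Socs36E with 5.59 and dome with 3.36 CPM per kb. The other genes were much lower, with upd3 at 0.386, aos at 0.185, vn at 0.176 and upd2 at 0.101 CPM per kb. The 8.72-fold step from dome to upd3 was present in all 6 libraries with no overlap of their ranges, as was the step from Stat92E to puc. Krn and Socs36E changed places between libraries, with Krn higher in 3 of 6, and aos stood above vn, and vn above upd2, in 5 of 6. All other neighbours kept their order within each of the 6 libraries although their ranges overlapped.

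**Figure D4:**
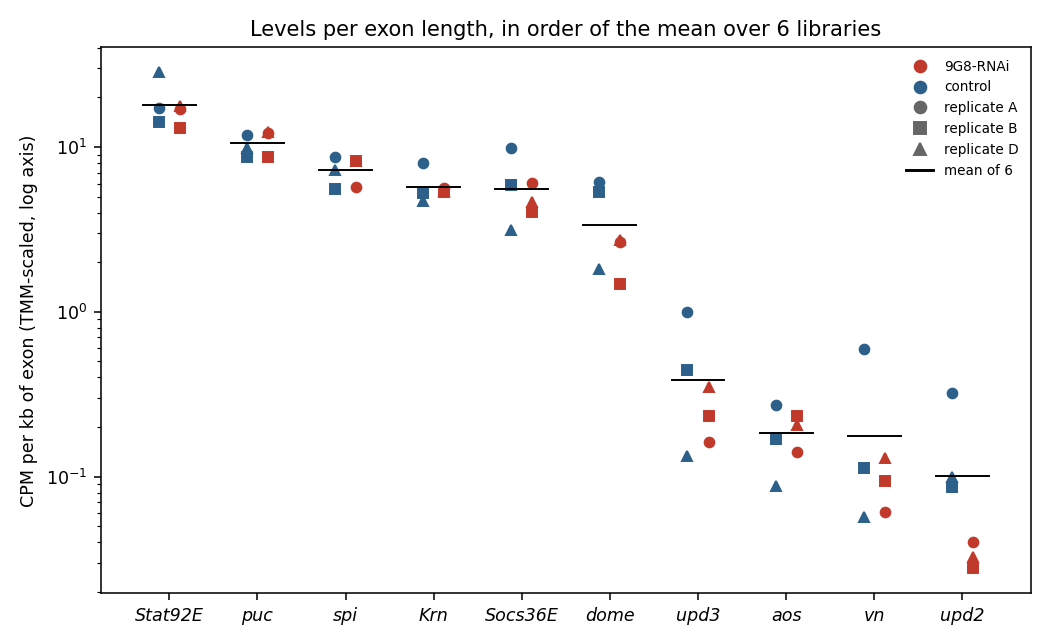
CPM per kilobase of exon (vertical axis, logarithmic) for the 10 genes in order of their mean over 6 libraries (black lines), with points for single libraries coloured by group. Of the 10, 6 lie between 3.36 and 17.9 CPM per kb on average and 4 at 0.386 or below, with the widest spreads between libraries for upd2 (11.6-fold) and vn (10.6-fold).

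The wider pathways were described through lists of their other genes. The list values below were taken without the trend with exonic length removed. Of 19 other JAK-STAT genes 14 were tested, with 0 higher and 0 lower, against 0.0862% higher and 0.0323% lower among all tested genes. A log2 fold change below 0 was seen for 9 of the 14 (median -0.34), against 55.7% of all tested genes (median -0.07). Stam, an adaptor in receptor sorting, measured 21.7 ± 8.74 CPM with 9G8-RNAi and 26.6 ± 9.24 CPM without (SD, n = 3). The SOCS-family genes Socs44A and Socs16D measured 11.4 ± 1.01 against 10.4 ± 0.60 CPM and 17.8 ± 5.49 against 25.7 ± 12.0 CPM. TotC, a stress-induced Turandot gene, measured 1.75 ± 1.02 against 4.29 ± 3.65 CPM. The third cytokine gene, upd1, had 0 to 10 counts per library and was not tested.

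Of 27 other EGF receptor pathway genes 25 were tested, again with 0 higher and 0 lower, against 0.118% of all tested genes in either direction. Of the 25, 21 lay below 0 (median -0.40), against 55.7% of all tested genes. The rhomboid-family gene rho-4 measured 30.9 ± 2.09 CPM with 9G8-RNAi and 36.6 ± 8.0 CPM without, and sty, which encodes the inhibitor Sprouty, 50.3 ± 15.0 and 60.3 ± 35.5 CPM (SD, n = 3). The GTPase gene Ras85D measured 19.5 ± 1.41 and 18.6 ± 3.63 CPM and the MAP kinase kinase gene Dsor1 12.0 ± 2.71 and 20.7 ± 13.7 CPM. In 2 genes of this list, kek1 and dos, the 9G8-RNAi values lay below all controls, against 8.61% of tested genes whose groups did not overlap in either direction.

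The 17 other JNK pathway genes were all tested, with 0 higher and 0 lower, against 0.118% of all tested genes in either direction. Of the 17, 13 lay below 0 (median -0.23), against 55.7% of all tested genes. Jra, the fly Jun, measured 21.6 ± 3.97 CPM with 9G8-RNAi and 22.5 ± 1.49 CPM without (SD, n = 3). The JNK gene bsk measured 19.9 ± 1.52 and 21.0 ± 9.60 CPM and the matrix metalloproteinase gene Mmp1 36.9 ± 8.14 and 48.2 ± 16.3 CPM. Mkk4, a kinase gene upstream of JNK, measured 25.8 ± 4.52 and 25.1 ± 2.98 CPM. Of 13 other growth signals of the gut 12 were tested, with 0 higher and 0 lower, against the same 0.118% of all tested genes. Of the 12, 11 lay below 0 (median -0.31), against the same 55.7%. In this list yki, the Hippo pathway coactivator, measured 17.2 ± 1.74 and 17.4 ± 0.95 CPM (SD, n = 3). The growth factor gene Pvf1 measured 12.7 ± 2.84 and 14.5 ± 8.66 CPM, its receptor gene Pvr 20.3 ± 5.67 and 31.1 ± 10.9 CPM, and the BMP ligand gene gbb 4.70 ± 1.12 and 5.76 ± 1.38 CPM.

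**Figure D5:**
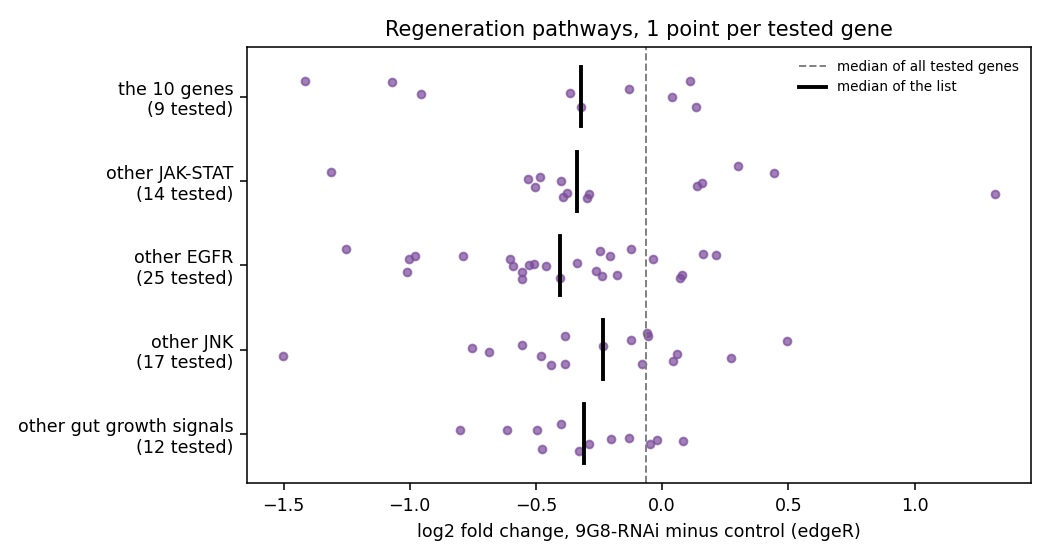
Log2 fold change, 9G8-RNAi minus control (horizontal axis), of each tested gene of the 10 and of the 4 pathway lists, with vertical jitter; black bars are list medians and the dashed line is the median of all tested genes, -0.07. List medians lie between -0.23 and -0.40, and no point passed the test.

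The genes whose profile over the 6 libraries was most like that of the 3 most variable tested genes were found by the root mean square difference of log2(CPM + 0.5) after centring each gene. For vn they were alpha-Man-Ia (0.11), CG3777 (0.11) and CG13003 (0.13), where the median tested gene differed from vn by 0.78. For dome they were Vinc, the fly vinculin gene (0.09), vir (0.11) and dally, a glypican gene (0.11), with a median of 0.75. For upd3 they were sr (0.05), plum (0.08) and Ccdc85 (0.08), with a median of 0.64. In sr, Ccdc85, CG3777 and CG13003 no 9G8-RNAi library exceeded 0.412 CPM. Below the added 0.5 CPM differences in level are narrowed, so likeness of such low genes is uncertain. Because vn, dome and upd3 were themselves highest in control A, a peak there in the genes most like them follows from the choice. All genes so chosen had it, as with sr at 1.20 CPM there and at most 0.456 CPM elsewhere. Vinc measured 36.4 CPM there and 7.30 CPM in 9G8-RNAi B.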

How the data were processed

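PolyA-selected RNA of 6 libraries was sequenced, and the authors deposited raw, unnormalized counts of reads per gene with each gene's summed exon length, per the file headers. The submitters' processing notes name Trimmomatic 0.36, STAR 2.5.2b, featureCounts, Subread 1.5.2 and the build BDGP6. Settings, strand among them, are not given there, so reads of overlapping genes may be misassigned. Symbols came from the Ensembl annotation of BDGP6: 17137 identifiers matched directly, 218 by position (at least 80% reciprocal overlap) and 56 not at all.

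In R 4.3.3, edgeR 4.0.16 was run on all genes (filterByExpr, TMM, robust quasi-likelihood test, Benjamini-Hochberg adjustment, threshold 0.05), after a test on simulated counts. SE is the log2 fold change divided by the root of F. DESeq2 1.42.0, limma-voom 3.58.1, other scalings and filters, and each library left out were alternatives. Within-group library pairs differed far beyond sampling noise (chi-square per degree of freedom at least 294.9). Python 3.11.15 and SciPy 1.17.1 gave levels and permutation tests. The 10 genes and the lists were chosen with earlier results of these data known. Named genes were the 10, x16, the 4 of each pathway list highest per kb, and the 3 likest genes; kek1, dos, upd1, Ndfip and the marker genes were named after their values were seen. The search for motifs in promoters and proteins was not run, and sequences were not used here.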

Additional observations from a re-analysis of the deposited data

How the results depend on the processing

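No member passed an adjusted p of 0.05 with edgeR, DESeq2 or limma-voom or in any of the 16 alternatives. The lowest adjusted p was 0.38, for dome in the edgeR fit without control replicate D. There dome, upd3 and vn had edgeR unadjusted p of 0.0052, 0.032 and 0.034. The share of all genes under 0.05 in that fit was not taken, so these are not read as a result. For dome the edgeR unadjusted p was also under 0.05 with total counts only (0.049) and with no filter on low counts (0.039). Over 141 refitted log2 fold changes, 129 kept their direction and 12 turned. Without control replicate A, Socs36E (0.0862), vn (0.13) and Krn (0.10) came out above 0, and without control replicate D, Stat92E (0.10) came out above and aos (-0.0917) below 0. With total counts only, spi (-0.25), aos (-0.31) and puc (-0.15) turned, and their differences in mean log2 CPM were -0.118, -0.0709 and -0.0376. Leaving out single libraries turned spi at -0.04 (9G8-RNAi replicate B or D) and -0.10 (control replicate B), and aos at -0.03 (9G8-RNAi replicate B). Ranges over libraries left out were -1.42 to -0.26 for upd3, -0.61 to 0.09 for Socs36E, -1.26 to -0.67 for dome, -0.54 to 0.10 for Stat92E, -1.78 to 0.13 for vn, -0.20 to 0.10 for Krn, -0.10 to 0.20 for spi, -0.09 to 0.54 for aos and 0.03 to 0.29 for puc. The cause was not tested.

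Over all genes, 11 passed, against 17 with total counts only, 50 with no filter on low counts, 104 with DESeq2, 4 with limma-voom, 7 with the library term, 23 with the length trend removed and 0 to 11 with 1 library left out. With the replicate block 0 genes and 0 of the 9 passed. The letters were not taken to pair samples: deviations of same-letter libraries correlated at -0.02, -0.35 and -0.46, and no library was most like the one of its own letter in the other group. Depth limits upd2, vn, aos and upd3, with as few as 2 to 6 counts in a library. The difference of upd2 in mean log2 CPM was -0.52 with a pseudocount of 0.5 and -1.23 with 0.1, a setting added after seeing the data.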
